A study of Mus musculus with 6 samples.

Results

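The genes described here encode 3 families of splicing factors, chosen by name: every feature of 1 gene whose symbol starts with Snrp, Hnrnp or Srsf. There were 40 such genes among 22926 features with a symbol, namely 11 Snrp, 18 Hnrnp and 11 Srsf genes. They were measured in C57BL/6 mice at 6 months of age that were homozygous for a knockout of Atxn2 (Atxn2-/-) or wild type (Atxn2+/+). Its product, ataxin-2, binds RNA and is found with translating ribosomes. Cerebellum, hippocampus and liver each gave 1 library per genotype, made from the pooled RNA of 3 animals, so 6 libraries in all. The sources used here do not say which part of Atxn2 was deleted. The sample titles number the pooled animals of a genotype 1, 2 and 3 in every tissue, so the 3 tissues may come from the same animals, and the tests across tissues treat them as separate. Pairs of values of a tissue are given with knockout first and wild type second.

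Introns are removed from new transcripts by the spliceosome, which is built from small nuclear ribonucleoproteins (snRNPs). Snrp genes encode the Sm proteins, which form a ring on the small nuclear RNAs, and proteins particular to the U1 and U2 particles. Srsf genes encode SR proteins, which bind exons and mostly promote the use of nearby splice sites, and Hnrnp genes encode proteins that coat new transcripts and often repress splice sites, besides acting in export, transport and decay. Neurons are known for especially rich alternative splicing.

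MACE (massive analysis of cDNA ends) sequences 1 fragment near the 3' end of a polyadenylated transcript, so a tag count does not scale with transcript length and levels of different genes can be set side by side. Levels are given as CPM, gene tags scaled to a common library total with TMM, which takes the bulk of genes as unchanged. Gene tags numbered 1774523 to 2727523 per library. Atxn2 had 0, 1 and 2 tags in knockout cerebellum, hippocampus and liver against 167, 194 and 115 in wild type. The genotypes also differed in a marker of sex: tags of Xist numbered 0 in all 3 knockout libraries and 34, 49 and 87 in wild type, while Y-linked Ddx3y had 81 to 176 tags in all 6 libraries, so genotype and sex cannot be told apart here. Defining markers stood in the labelled tissues. The 7 granule neuron markers summed to 2467 and 2431 CPM in cerebellum and at most 97.5 CPM elsewhere. The 8 hippocampal markers summed to 4621 and 5403 CPM in hippocampus and at most 131.9 CPM elsewhere. The 8 hepatocyte markers summed to 191039 and 167682 CPM in liver. They also reached 410.0 and 1623 CPM in hippocampus and 2739 and 4042 CPM in cerebellum, lower in the knockout in both. Ttr, also a transcript of the choroid plexus, made up most of the cerebellar sum: without it the other 7 markers summed to 283 and 498 CPM in cerebellum and to 270 and 1239 CPM in hippocampus. Neuron markers (5 genes) summed to 3594 to 3908 CPM in the brain libraries and to 132 and 156 CPM in liver. Red blood cell markers (5 genes) were higher in the knockout in each tissue, at 811 and 635 CPM in cerebellum, 211 and 138.9 CPM in hippocampus and 1002 and 534 CPM in liver. Oligodendrocyte markers (5 genes), mostly Mbp, were lower in the knockout, at 2949 and 4100 CPM in cerebellum and 1931 and 2520 CPM in hippocampus. Neutrophil markers (4 genes) stood at 62.6 and 29.1 CPM in cerebellum, 9.59 and 8.22 CPM in hippocampus and 61.6 and 33.6 CPM in liver. Choroid plexus markers (5 genes) stood at 38.7 and 65.3 CPM in cerebellum. The part of these differences in the comparisons below was not tested.

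The splicing factors had a median level of 49.7 to 67.4 CPM per library, and 8 to 14 of the 40 genes reached 100 CPM. In each tissue 38 of the 40 genes had a mean of 10 CPM or more. Of all 22926 features, 8535 reached that level in cerebellum, 8558 in hippocampus and 8248 in liver. Hnrnpa2b1 was the most abundant in every library, at 5.64 to 6.98 times the median of the 40. Hnrnpul1 and Srsf12 stayed under 10 CPM in every library. Hnrnpul1, a relative of Hnrnpu, had 29 tags in all and was not tested, so 39 genes entered each fit. Srsf12 passed the filter on low counts through its brain libraries alone. In bulk tissue, a lower level in fewer cells and a lower level in every cell cannot be told apart.

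**Figure D1:**
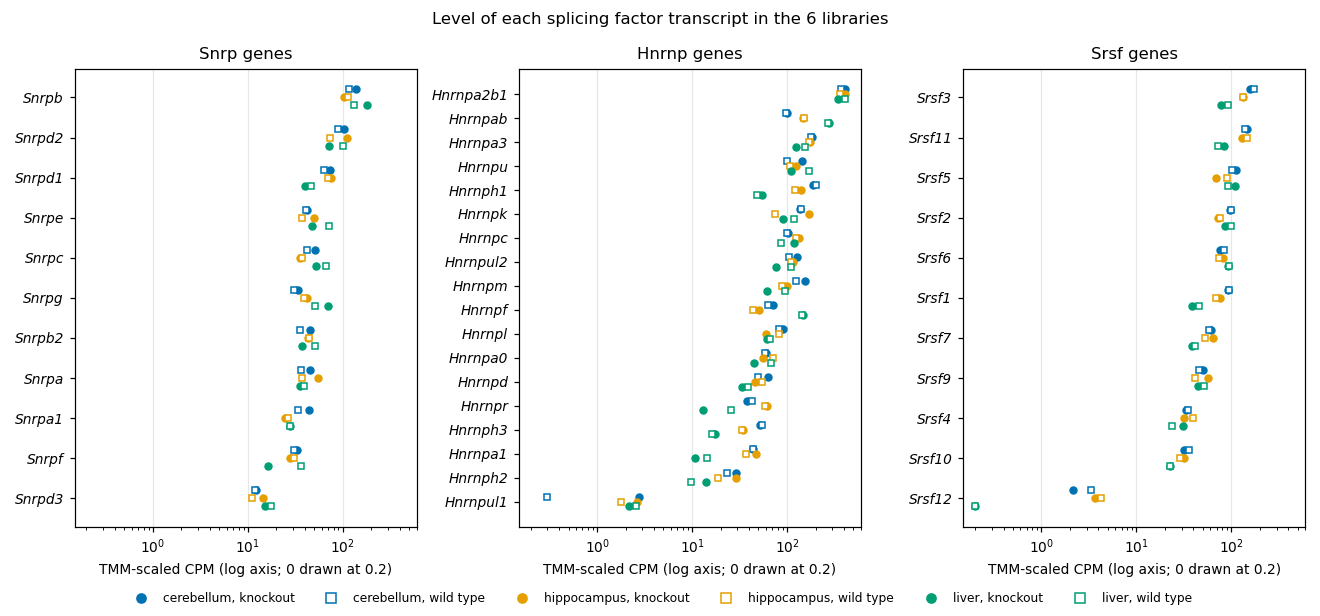
Level of each of the 40 genes in the 6 libraries, in TMM-scaled CPM on a log axis, in 1 panel per family; filled circles are knockout, open squares wild type, and colours mark the tissue. Hnrnpa2b1 leads in every library, green liver points of Hnrnpa1, Hnrnph1, Hnrnph3 and Hnrnpr lie left of the brain points, and those of Hnrnpf and Hnrnpab lie right of them.

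As a share of all gene tags, before any scaling, the 40 genes took shares of 0.491% and 0.458% in cerebellum, of 0.418% and 0.391% in hippocampus and of 0.147% and 0.177% in liver. The exact 95% counting intervals of the liver shares, 0.142% to 0.153% and 0.172% to 0.182%, lay below those of all 4 brain libraries. After TMM scaling the summed level was 3475 and 3239 CPM in cerebellum, 3230 and 2991 CPM in hippocampus, and 2825 and 3115 CPM in liver, so the groups of tissues then overlapped. The scaling decides how liver and brain compare, and the members are therefore also given relative to all genes. Over the 12906 features tested, the median log2 difference of liver minus brain was -0.16 with TMM and -1.41 with library totals. The members' median was -0.25 and -1.51, which is 0.09 and 0.10 below it, and 16 of 39 members lay above the median of all features under either scaling. This relation turned under other choices: with no filter on low counts the members' median lay 0.38 above that of all features, with 30 of 40 members above it, and without knockout liver it lay 0.01 above, with 20 of 39.

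Liver was compared with the mean of cerebellum and hippocampus to ask how the families differ between tissues. Among the 39 tested genes, 5 were higher in liver and 15 lower with an adjusted p below 0.05 (the quasi-likelihood test of edgeR, Benjamini-Hochberg over all features, 2 residual degrees of freedom). That is 12.8% and 38.5% of the members, beside 33.8% higher and 36.4% lower among all features, or 70.2% in either direction. One of the 15 was Srsf12, which had 0 liver tags and entered the test through brain alone, so that its direction was set by the filter. Without it 14 of 38 members (36.8%) were lower, and the features called lower also held 377 with 0 liver tags among the 4693. At least 2-fold differences were called for 2 higher and 7 lower members, or 6 lower without Srsf12, against 26.1% and 30.0% of all features. With library totals in place of TMM the counts were 0 higher and 37 lower members, against 2159 and 8614 of all features. The 5 genes called higher with TMM were then at 0.07 (Hnrnpf), -0.14 (Hnrnpab), -0.59 (Snrpg), -0.77 (Snrpc) and -0.79 (Snrpe) on the log2 scale, each above the median of all features of -1.41. By family, 3 of 11 Snrp genes were higher and 1 lower, 2 of 17 tested Hnrnp genes were higher and 8 lower, and 0 of 11 Srsf genes were higher and 6 lower (5 of 10 without Srsf12). The family medians were 0.05, -0.36 and -0.56 on the log2 scale, the last at -0.50 without Srsf12, with 7, 5 and 4 members above the median of all features.

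The Sm ring, made of the products of Snrpb, Snrpd1, Snrpd2, Snrpd3, Snrpe, Snrpf and Snrpg, was not uniform across tissues at the transcript level. Snrpb (chromosome 2, 130171636 to 130179382) had the highest level of the family, at 139 and 117 CPM in cerebellum, 104 and 114 CPM in hippocampus and 179.5 and 129.9 CPM in liver. Knockout liver was above every brain library and wild-type liver below knockout cerebellum, and the difference did not pass (log2 0.32, SE 0.16, adjusted p = 0.0802). Snrpd2 stood at 102 and 88.1 CPM in cerebellum, 110.4 and 73.2 CPM in hippocampus and 71.4 and 100.2 CPM in liver, with overlapping tissues. Snrpg (chromosome 6, 86371540 to 86378902) stood at 33.5 and 30.6 CPM in cerebellum, 42.3 and 39.3 CPM in hippocampus and 70.3 and 51.1 CPM in liver. All its liver values lay above all its brain values, by a log2 of 0.67 (SE 0.18, adjusted p = 0.00263), or 0.83 above the median of all features; without knockout liver the difference was 0.50 and lost its call (adjusted p = 0.0668). Snrpe, at 41.8 and 41.4 CPM in cerebellum, 50.3 and 37.5 CPM in hippocampus and 47.6 and 71.8 CPM in liver, overlapped between liver and hippocampus. It was called higher in liver (log2 0.47, SE 0.20, adjusted p = 0.0424), a call that rested on wild-type liver: without that library the difference was -0.016, and the call was also lost without wild-type hippocampus (0.26) and without either cerebellum library (0.45 and 0.43 without knockout and wild type). Snrpd1 went the other way, at 74.0 and 63.8 CPM in cerebellum, 75.4 and 70.0 CPM in hippocampus and 40.0 and 45.9 CPM in liver. Both liver values were below every brain value (log2 -0.75, SE 0.19, adjusted p = 0.00124). Snrpf and Snrpd3 did not pass.

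Within the libraries, where scaling plays no part, Snrpg had 0.452 and 0.479 tags per Snrpd1 tag in cerebellum and 0.561 in both hippocampal libraries. In liver it had 1.76 (exact 95% counting interval 1.16 to 2.71) and 1.11 (0.797 to 1.56). The ratio of these Sm ring genes was thus higher in both liver libraries than in all 4 brain libraries. This and the other ratios of gene pairs were chosen after the values were seen.

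Among the proteins of the U1 and U2 particles, Snrpc was higher in liver. It encodes the U1 protein that steadies pairing with the 5' splice site, and stood at 51.4 and 42.3 CPM in cerebellum, 35.4 and 37.2 CPM in hippocampus and 51.9 and 65.9 CPM in liver. Knockout liver and knockout cerebellum differed little, and the log2 difference of 0.49 (SE 0.19, adjusted p = 0.0253) lost its call without wild-type liver (0.21), wild-type cerebellum (0.33) or knockout hippocampus (0.38). Snrpa, whose product binds a stem-loop of U1 RNA, did not pass (log2 -0.22, SE 0.21, adjusted p = 0.342). Its levels were 45.5 and 36.3 CPM in cerebellum, 54.9 and 36.8 CPM in hippocampus and 35.7 and 38.8 CPM in liver. The U2 genes Snrpa1 and Snrpb2 did not pass either (log2 -0.22 and 0.05).

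A joint feature outside the families by its spelling, Snrpn/Snurf, comes from a transcript with both reading frames and covers SmN, the relative of Sm protein B that brain is known for. It had 807 and 753 CPM in cerebellum, 911 and 1054 CPM in hippocampus and 67.0 and 57.5 CPM in liver. In tags it outnumbered Snrpb by 5.82 to 9.28 to 1 in the brain libraries, and stood at 0.373 and 0.443 to 1 in knockout and wild-type liver. Other features with older spellings, Hnrpdl, Hnrpll and Sfrs18, had brain means 2.55, 1.26 and 3.52 times their liver means.

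Among the tested genes other than Srsf12, the Hnrnp family held both extremes. Both, Hnrnpf and Hnrnpa1, had most of their tags in rows shared with predicted copies. Hnrnpf, whose product binds G-rich RNA, stood at 70.9 and 62.6 CPM in cerebellum, 50.3 and 43.9 CPM in hippocampus and 148 and 144 CPM in liver. Liver was above every brain library (log2 1.33, SE 0.15, adjusted p = 8.49e-08; 1.49 above the median of all features). With library totals its difference was 0.07 (adjusted p = 0.693), still above the median of all features there. Of its tags 98.3% lay in rows shared with a predicted copy, so its level is uncertain. Hnrnpab (chromosome 11, 51600100 to 51606881), which encodes an A/B-type hnRNP, stood at 100.4 and 98.3 CPM in cerebellum, 147 and 151 CPM in hippocampus and 276 and 273 CPM in liver. The 3 tissues did not overlap, and liver was higher by a log2 of 1.12 (SE 0.14, adjusted p = 4.54e-07) with TMM, against -0.14 with library totals. Hnrnpu, a chromatin-associated hnRNP, came next (log2 0.23, SE 0.19) and did not pass. Its levels were 144 and 99.8 CPM in cerebellum, 126 and 107.5 CPM in hippocampus and 110.3 and 172 CPM in liver.

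Hnrnpa1, Hnrnpr and the H-type genes were the lowest of the family in liver. Hnrnpa1, which encodes a well-known repressor of exon inclusion, stood at 44.0 and 44.1 CPM in cerebellum, 46.6 and 36.8 CPM in hippocampus and 10.8 and 14.2 CPM in liver (log2 -1.77, SE 0.26, adjusted p = 3.30e-06). Its tags lay to 99.3% in rows shared with predicted copies and its level is uncertain. Hnrnph1 (chromosome 11, 50375257 to 50386528), like Hnrnpf a binder of G-rich RNA, stood at 186 and 201 CPM in cerebellum, 141 and 123 CPM in hippocampus and 55.1 and 47.8 CPM in liver. It had no tags in shared rows, and all liver values were under all brain values (log2 -1.70, SE 0.18, adjusted p = 3.04e-08; 1.53 below the median of all features). Hnrnph3, a smaller relative, stood at 51.7 and 54.6 CPM in cerebellum, 34.1 and 33.9 CPM in hippocampus and 17.3 and 16.2 CPM in liver (log2 -1.41, SE 0.24, adjusted p = 1.79e-05). Hnrnph2, the X-linked relative, was also lower (log2 -1.14, SE 0.28, adjusted p = 0.00127), with 80.4% of its tags in shared rows; from rows of 1 symbol alone it did not pass (-1.06, adjusted p = 0.133). Hnrnpr, known from motor neurons as a partner of Smn, stood at 37.5 and 42.3 CPM in cerebellum, 62.2 and 58.6 CPM in hippocampus and 13.0 and 25.9 CPM in liver (log2 -1.32, SE 0.24, adjusted p = 5.14e-05). Hnrnpd, Hnrnpm and Hnrnpa3 were lower by smaller amounts (log2 -0.60, -0.57 and -0.39). Hnrnpd lost its call without knockout cerebellum (-0.49), wild-type hippocampus (-0.50) or knockout liver (-0.49), Hnrnpm without knockout cerebellum (-0.50) or knockout liver (-0.22), and Hnrnpa3 without either cerebellum library (-0.38 and -0.46) or knockout liver (-0.25).

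The balance between close relatives differed between tissues within each library. Hnrnpf had 0.382 and 0.311 tags per Hnrnph1 tag in cerebellum and 0.357 and 0.359 tags in hippocampus. In liver it had 2.69 (exact 95% counting interval 1.93 to 3.78) and 3.00 (2.30 to 3.96), so Hnrnpf was the scarcer of the pair in brain and the more abundant in liver. This ratio shares the uncertainty of the Hnrnpf level, since 98.3% of Hnrnpf tags lay in rows shared with a predicted copy. Hnrnpab had 1.57 and 1.99 tags per tag of Hnrnpd, a relative known for binding AU-rich decay signals, in cerebellum, with ratios of 3.16 and 2.75 in hippocampus and of 8.23 and 7.03 in liver. The most abundant member, Hnrnpa2b1 (chromosome 6, 51460434 to 51470048), an hnRNP that takes part in RNA transport, showed little of this. It stood at 408 and 373 CPM in cerebellum, 406 and 360.4 CPM in hippocampus and 347 and 405 CPM in liver (log2 -0.09, SE 0.18, adjusted p = 0.664). Hnrnpa3 stood at 181 and 177 CPM in cerebellum, 177 and 171 CPM in hippocampus and 124 and 153 CPM in liver. It followed Hnrnpab in mean level over the 6 libraries, but lay above Hnrnpab in all 4 brain libraries and below it in liver.

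**Figure D2:**
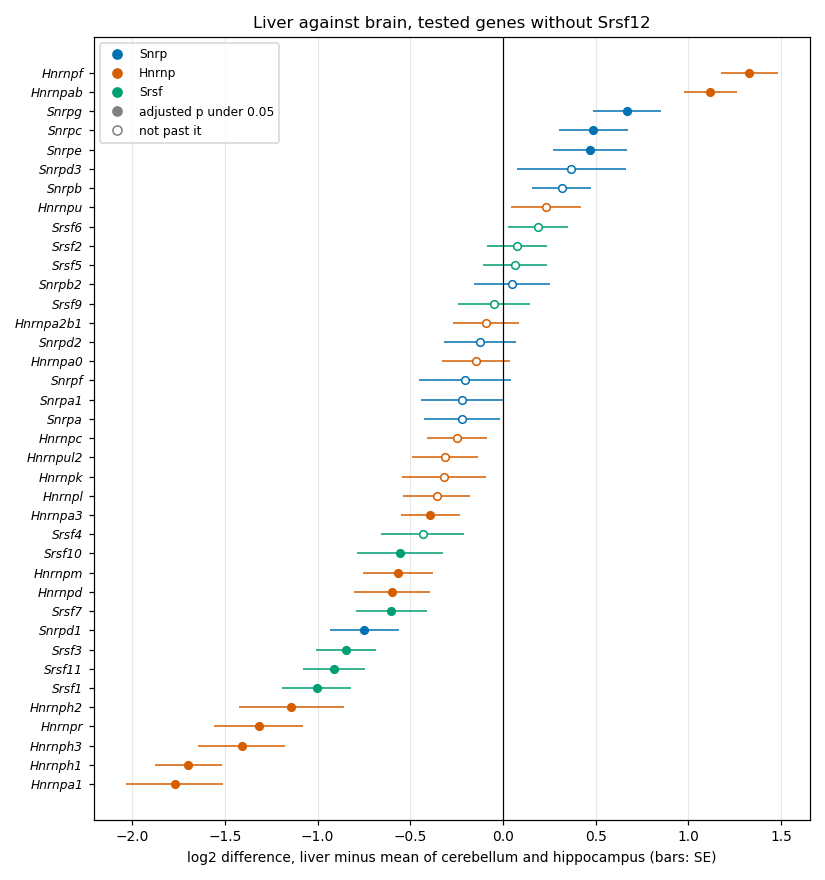
Fitted log2 difference of liver minus the mean of cerebellum and hippocampus for the tested genes other than Srsf12 under TMM scaling, with bars for the SE; colours mark the family and filled points an adjusted p under 0.05. Hnrnpf (1.33) and Hnrnpab (1.12) lie at one end and Hnrnpa1 (-1.77) and Hnrnph1 (-1.70) at the other. The median of all features is -0.16. With library totals Hnrnpab is at -0.14 and the median at -1.41. Of the tags of Hnrnpf and Hnrnpa1, 98.3% and 99.3% lay in rows shared with predicted copies.

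No Srsf gene was called higher in liver, and 5 of the 10 other than Srsf12 were lower, beside 33.8% and 36.4% of all features. Srsf3 (chromosome 17, 29032660 to 29043372), the smallest SR protein and also an export adaptor, led the family at 158 and 175 CPM in cerebellum, 132 and 133 CPM in hippocampus and 78.9 and 92.4 CPM in liver (log2 -0.85, SE 0.16, adjusted p = 9.49e-05). Srsf11 was close behind in brain, at 147 and 138 CPM in cerebellum, 130.3 and 148 CPM in hippocampus and 83.3 and 73.0 CPM in liver (log2 -0.91, SE 0.17, adjusted p = 5.74e-05). Srsf1, a founding SR protein, stood at 93.5 and 93.8 CPM in cerebellum, 75.4 and 69.3 CPM in hippocampus and 38.9 and 45.2 CPM in liver (log2 -1.0, SE 0.19, adjusted p = 5.99e-05). In all 3 genes each liver library was below each brain library. Srsf7, a zinc-knuckle SR protein, and Srsf10, which represses splicing when dephosphorylated, were lower by less (log2 -0.60 and -0.56). The first lost its call without knockout liver (-0.50), and the second kept it in 1 of 6 fits that left out a library, without wild-type hippocampus, with differences from -0.67 to -0.49.

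Srsf12, an unusual SR protein known to oppose other SR proteins, was scarce, with 2.17 and 3.30 CPM in cerebellum, 3.64 and 4.29 CPM in hippocampus and 0 tags in both liver libraries. With a floor of 3 counts over both liver libraries it was at least 2.73-fold lower in liver than in brain (41 brain tags). Srsf12 passed the filter through brain alone, so this direction was set by the filter, and the bound depends on the floor. Without wild-type liver its call was lost (adjusted p = 0.0625). At the other end, Srsf6, Srsf2 and Srsf5, SR proteins that bind exonic enhancers, did not pass (log2 0.19, 0.08 and 0.07). Srsf6 stood at 75.3 and 83.3 CPM in cerebellum, 82.7 and 75.0 CPM in hippocampus and 91.9 and 95.03 CPM in liver. Srsf2 stood at 97.3 and 98.9 CPM in cerebellum, 71.8 and 76.4 CPM in hippocampus and 86.5 and 99.6 CPM in liver. Liver overlapped cerebellum for Srsf2 and lay above all brain libraries for Srsf6. Srsf5 was at 113 and 102 CPM in cerebellum, 68.8 and 90.7 CPM in hippocampus and 110.3 and 92.4 CPM in liver. Within libraries, Srsf6 had 0.805 to 1.10 tags per Srsf1 tag in the 4 brain libraries, and 2.36 (1.58 to 3.59) and 2.10 (1.57 to 2.83) in knockout and wild-type liver.

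Promoters are shown for a pair of the genes lowest in liver and a pair of those highest, as examples of opposite differences. They come from RefSeq on GRCm38.p6 and run from 250 bases before the start to 50 after it: Hnrnpa1 at chr15:103240147-103240446 on the plus strand, Hnrnph3 at chr10:63023800-63024099 on the minus strand, Hnrnpab at chr11:51606832-51607131 on the minus strand and Snrpg at chr6:86371290-86371589 on the plus strand. The starts used for Hnrnpa1 and Hnrnph3 lay inside the annotated gene spans. These spans run from 103239943 to 103246698 and from 63014664 to 63023980. Capitals mark CCAAT or its reverse ATTGG.
Hnrnpa1: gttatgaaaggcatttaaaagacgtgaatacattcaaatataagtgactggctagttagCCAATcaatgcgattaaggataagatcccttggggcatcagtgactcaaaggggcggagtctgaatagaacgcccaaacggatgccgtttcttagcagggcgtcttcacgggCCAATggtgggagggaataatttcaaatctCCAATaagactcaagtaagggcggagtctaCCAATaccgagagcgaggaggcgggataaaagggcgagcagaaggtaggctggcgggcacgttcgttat
Hnrnph3: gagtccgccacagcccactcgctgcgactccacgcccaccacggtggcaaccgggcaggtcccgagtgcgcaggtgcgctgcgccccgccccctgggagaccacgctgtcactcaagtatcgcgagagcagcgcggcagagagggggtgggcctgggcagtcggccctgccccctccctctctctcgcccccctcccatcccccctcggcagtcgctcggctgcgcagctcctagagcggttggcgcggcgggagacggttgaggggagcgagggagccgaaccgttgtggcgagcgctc
Hnrnpab: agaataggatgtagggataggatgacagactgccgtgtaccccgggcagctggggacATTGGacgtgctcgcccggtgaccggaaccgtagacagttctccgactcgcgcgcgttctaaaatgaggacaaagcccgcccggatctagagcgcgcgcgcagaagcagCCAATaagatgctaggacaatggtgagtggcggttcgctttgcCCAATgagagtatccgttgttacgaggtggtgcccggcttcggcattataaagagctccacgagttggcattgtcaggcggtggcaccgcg
Snrpg: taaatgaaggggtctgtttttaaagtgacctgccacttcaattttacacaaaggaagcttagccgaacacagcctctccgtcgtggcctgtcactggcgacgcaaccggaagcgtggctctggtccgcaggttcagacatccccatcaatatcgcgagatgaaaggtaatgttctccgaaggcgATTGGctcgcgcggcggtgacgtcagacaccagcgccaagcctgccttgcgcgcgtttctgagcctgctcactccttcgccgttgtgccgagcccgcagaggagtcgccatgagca

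Matches did not sort with the direction in these 4 windows. Hnrnpa1, lower in liver, held 4 CCAAT matches and Hnrnpab, higher in liver, held 3, while Hnrnph3 held 0 and Snrpg 1. The windows held 16 to 32 CG dinucleotides. Over the 50 promoters listed for 37 of the 40 genes, the median was 27 CG dinucleotides, against 7 over all 32851 promoters of the same length. A GC box (GGGCGG on either strand) was in 76% of them, against 35.7% of all promoters, and the ETS core CCGGAAG in 28%, against 8.86%. CCAAT was in 48% against 37.4%, and TATAAA in 10% against 13.6%, on either strand in each case; matches of different motifs may overlap. A match is a description of letters in the window.

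Cerebellum was compared with hippocampus in the same fit. Of the 39 tested genes 5 were higher in cerebellum and 2 lower (edgeR quasi-likelihood test), against 13.5% and 15.8% of all features (29.3% in either direction), and none differed by 2-fold. Hnrnph3 (log2 0.64, SE 0.18, adjusted p = 0.0110) and Hnrnph1 (0.55, SE 0.16, adjusted p = 0.0128) were higher in cerebellum and lower in liver. Hnrnpm, which promotes or represses exon use near GU-rich sites, stood at 153 and 125 CPM in cerebellum against 98.9 and 89.3 CPM in hippocampus (log2 0.56, SE 0.19, adjusted p = 0.0279). Hnrnpf (0.50, adjusted p = 0.0385) was higher in cerebellum as well. Snrpa1, the U2 protein that pairs with the product of Snrpb2, was the 1 Snrp gene that passed, at 43.7 and 33.9 CPM in cerebellum, 24.8 and 26.8 CPM in hippocampus and 28.1 and 27.8 CPM in liver (log2 0.58, SE 0.21, adjusted p = 0.0385).

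Hnrnpr (log2 -0.61, SE 0.19, adjusted p = 0.0206) and Hnrnpab (-0.59, SE 0.17, adjusted p = 0.00968) were higher in hippocampus. Every one of the 7 called genes had both cerebellum libraries on the same side of both hippocampus libraries. No Srsf gene passed, and Srsf5 (0.42, adjusted p = 0.0839) and Srsf2 (0.40, adjusted p = 0.0783) came closest. The counts changed with the libraries used: 0 of the 39 genes passed without knockout or without wild-type cerebellum, 3 higher and 0 lower without knockout hippocampus, 1 and 1 without wild-type hippocampus, 8 and 2 without either liver library, and 0 and 1 by DESeq2. With library totals the counts were 9 higher and 1 lower.

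The knockout was compared with wild type across the 3 tissues to ask whether loss of Atxn2 changed these transcripts. Of the 39 tested genes 0 were higher and 0 lower with an adjusted p below 0.05 (the quasi-likelihood test of edgeR with tissue as a term, over 11375 features). Of all features 0.00879% were higher and 0.0879% lower by that rule (0.0967% in either direction). An unadjusted p under 0.05 was found for 1 of the 39 genes, beside 555 of the 11375 features. DESeq2 and limma voom also called 0 members, as did each other scaling and filter and each fit without a tissue. The members' median log2 difference was 0.01 and their range -0.39 to 0.47, with 24 of 39 above 0, against a median of -0.004 over all features and 5613 of 11375 above 0. In simulated counts for this comparison the same fit recovered 30% of 50 genes changed 1.5-fold and 78% of those changed 2-fold, so smaller differences could go uncalled. The p-values measure agreement between tissues, since each library is a pool.

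Hnrnph2 had the highest difference (log2 0.47, SE 0.20, adjusted p = 0.998), with 29.1 and 23.4 CPM in cerebellum, 29.1 and 18.9 CPM in hippocampus and 14.1 and 9.70 CPM in liver. It was higher in the knockout in all 3 tissues, but it is X-linked, the genotypes differ in Xist, and most of its tags lie in shared rows. From rows of 1 symbol alone its hippocampal ratio was -0.58. Hnrnpk, which encodes a KH-domain protein that binds C-rich RNA, was next in its family (log2 0.30, SE 0.20, adjusted p = 0.998), with 136 and 139.7 CPM in cerebellum, 169 and 75.0 CPM in hippocampus and 89.8 and 117 CPM in liver. The difference was carried by the hippocampus, where wild type was the lowest of the 6 libraries. The lowest of the family were Hnrnpa0 (log2 -0.24, SE 0.16) and Hnrnpr (-0.16, SE 0.18). Hnrnpa0, a small A-type hnRNP, stood at 60.7 and 58.1 CPM in cerebellum, 55.2 and 70.4 CPM in hippocampus and 45.4 and 67.9 CPM in liver.

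In the Snrp family, 9 of 11 fitted differences were above 0, with a median of 0.10, and 0 passed. Snrpa (log2 0.33, SE 0.17, adjusted p = 0.998) and Snrpg (0.21, SE 0.16) were highest and Snrpf (-0.22, SE 0.20) and Snrpc (-0.0024, SE 0.16) lowest. Snrpf, an Sm ring gene, stood at 32.8 and 30.9 CPM in cerebellum, 28.1 and 30.4 CPM in hippocampus and 16.2 and 36.2 CPM in liver, so its genotypes lay farthest apart in liver. In the Srsf family 4 of 11 were above 0, with a median of -0.02. Srsf9 (0.19, SE 0.16) and Srsf7 (0.12, SE 0.15) were highest, and Srsf12 (-0.39, SE 0.48) and Srsf3 (-0.12, SE 0.14) lowest. Srsf9 stood at 50.5 and 45.9 CPM in cerebellum, 57.5 and 41.1 CPM in hippocampus and 44.3 and 51.1 CPM in liver, and Srsf7 at 61.0 and 58.8, 64.8 and 53.2, and 38.9 and 41.4 CPM in the same order. In both genes the genotypes overlapped across libraries.

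Within a tissue there was 1 library per genotype and no test, so genes were counted by a rule of size: a log2 ratio at or beyond 0.5 in either direction, a mean of 10 CPM or more and an exact 95% counting interval that leaves out equality. The intervals cover counting error only, not differences between animals. Of 38 members with 10 CPM, 1 was past the rule in knockout cerebellum as higher and 0 as lower, against 2.09% and 2.84% of all features. Hippocampus had 4 higher and 0 lower, against 5.35% and 4.67%. Liver had 0 higher and 7 lower, against 5.32% and 7.52%; with DESeq2 size factors in place of TMM it had 3 higher and 3 lower, so the liver counts changed with the scaling. The members' median log2 ratio was 0.09, 0.10 and -0.20 in cerebellum, hippocampus and liver, against -0.01, 0.01 and -0.02 over all features.

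The gene past the rule in cerebellum was Hnrnpu, which had 465 knockout and 333 wild-type tags (log2 ratio 0.53, interval 0.32 to 0.74). All 11 Snrp ratios were above 0 there, from 0.01 to 0.37, with 1 of 11 intervals leaving out equality, that of Snrpb (0.24). Over all 8535 features with 10 CPM there, 48.3% of the ratios were above 0 and 7.10% of the intervals lay above equality, so 1 of 11 is near that share. In hippocampus Hnrnpk had 511 and 210 tags (1.17, interval 0.94 to 1.41), a 2.25-fold higher level in knockout, and its other brain ratio was -0.04 in cerebellum. Snrpd2 (0.59, interval 0.34 to 0.85), Snrpa (0.58, 0.21 to 0.95) and Hnrnph2 (0.62, 0.11 to 1.14) were the others. In the same libraries the hepatocyte markers were at 410.0 CPM in knockout and 1623 in wild type, and their part in these ratios was not tested.

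In liver the 7 lower genes were Snrpf, Snrpe, Hnrnpr, Hnrnpu, Hnrnpm, Hnrnpa0 and Hnrnpul2. Snrpf had 15 and 56 tags in knockout and wild type (log2 ratio -1.16, interval -2.09 to -0.32) and Hnrnpr 12 and 40 (-0.99, -2.06 to -0.04). Hnrnpu had 102 and 266 tags (-0.64, -0.98 to -0.31), the opposite of its ratio in cerebellum. The rest had ratios from -0.61 to -0.51. Of the 11 Snrp genes 8 were below 0 in liver, beside 51.4% of all features, and 3 above, among them Snrpb at 0.47 (interval 0.16 to 0.77). No Srsf gene was past the rule in any tissue. Across tissues 4 of 38 members were higher in the knockout in all 3 (Hnrnpc, Hnrnpf, Hnrnph2 and Snrpg) and 2 lower (Srsf2 and Srsf3), or 32 with mixed signs, against 13.3% and 13.6% of all features.

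**Figure D3:**
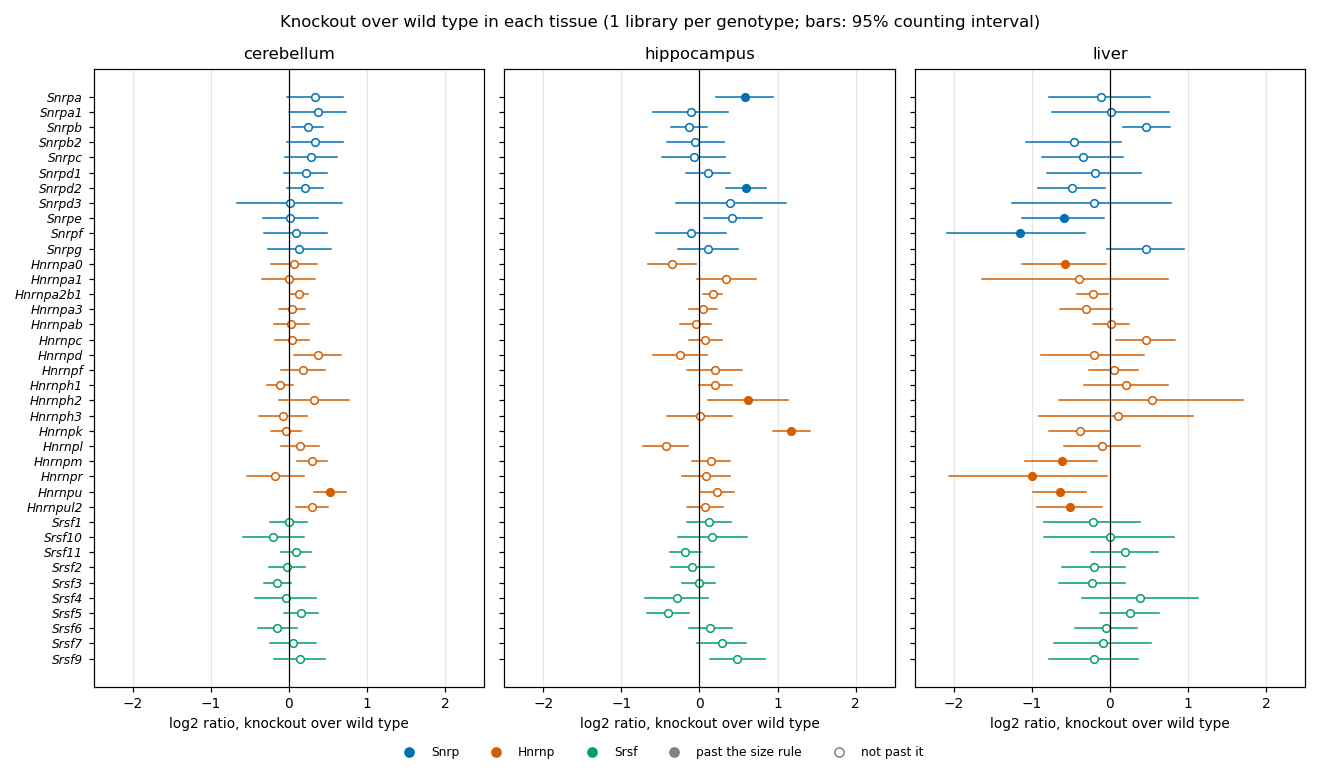
Log2 ratio of knockout over wild type for the 38 genes with at least 10 CPM, in 1 panel per tissue; bars are exact 95% counting intervals, colours mark the family and filled points the genes past the rule of size. Filled points lie right of 0 in cerebellum (Hnrnpu) and hippocampus (4 genes, Hnrnpk farthest at 1.17) and left of 0 in liver (7 genes, Snrpf farthest at -1.16).

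Tags of 3 genes fell into separate rows for different RefSeq transcript records, which gives the share of each record set. These genes were chosen after the values were seen, as the ones with at least 10% and 100 tags in each of 2 rows. For Hnrnpa2b1, variant 1 took 72.5% and 69.9% of the tags in both rows in cerebellum, with 77.5% and 77.8% in hippocampus and liver shares of 59.3% and 62.3%. These lay below all brain shares (61.3%, exact interval 58.1% to 64.4%, over the liver libraries, against 74.2%, 73.0% to 75.5%, over the brain libraries). Intervals over pooled libraries cover counting error only. The single brain libraries, at 69.9% to 77.8%, all lay outside the pooled brain interval. In the annotation the last exons of both variants overlap on chromosome 6: 51461124 to 51461433 for variant 1 and 51460932 to 51461433 for variant 2 (GRCm38), so the rows differ in where the transcript ends as well as in their exons.

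Hnrnpa3 went the other way. Its tags that match variants b and c but not a took 52.1% and 60.6% in cerebellum, with 64.6% and 68.2% in hippocampus and liver shares of 77.5% and 84.6%, the rest matching a, b and c alike. In each tissue the knockout share was below the wild-type share, with exact intervals that overlap in hippocampus and liver and not in cerebellum (47.9% to 56.3% and 56.5% to 64.6%). For Srsf10, whose variants have separate last exons on chromosome 4 (135863729 to 135865815 for variant 2 and 135867126 to 135869908 for variant 1), variant 2 took 71.3% and 80.0% in cerebellum, with 70.5% and 74.7% in hippocampus and 60.0% and 50.0% in liver. With 20 and 34 tags in liver the intervals were wide. That of wild-type liver (32.4% to 67.6%) lay below that of wild-type cerebellum (71.7% to 86.7%) and overlapped those of the other brain libraries, and that of knockout liver (36.1% to 80.9%) overlapped all 4. Over the liver libraries the share was 53.7% (39.6% to 67.4%), below the 74.4% (69.8% to 78.7%) over the brain libraries, with pooled intervals that leave out differences between libraries. No test over libraries was made of these shares.

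**Figure D4:**
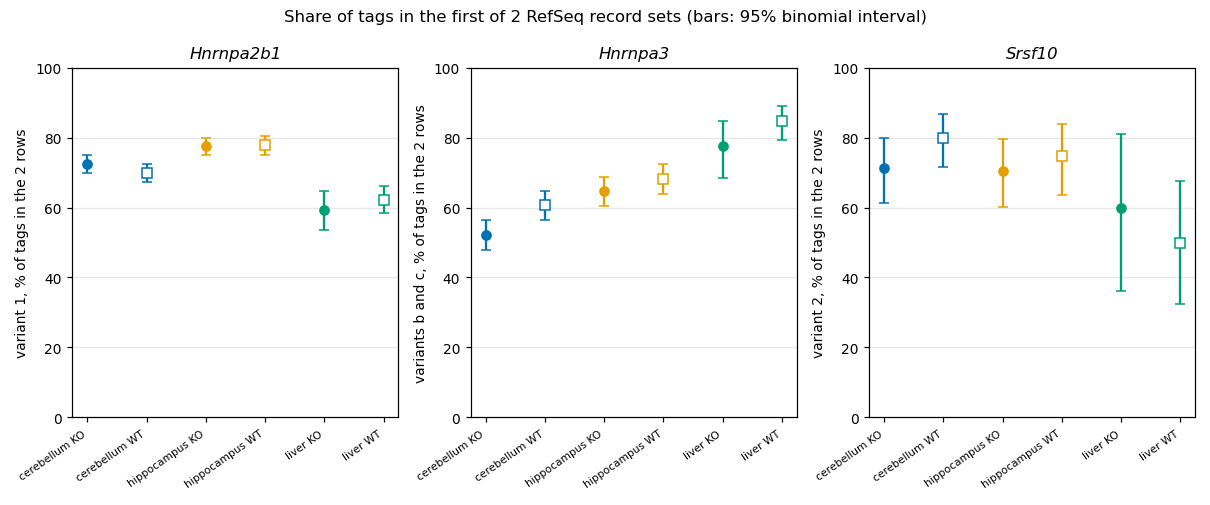
Share of tags, in percent with exact 95% binomial intervals, that fall in the first of 2 RefSeq record sets of Hnrnpa2b1, Hnrnpa3 and Srsf10 in each library; circles are knockout and squares wild type. Liver is lowest for Hnrnpa2b1 (59.3% and 62.3%) and highest for Hnrnpa3 (77.5% and 84.6%).

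Antisense tags were counted separately and made up 1.61% of the tags at the members (779 against 47599 sense tags). Over all genes their share was 2.23% to 2.87% per library. Srsf9 had 178 and Hnrnpl, whose product binds CA repeats, 134, which is 19.7% and 10.5% of the tags at each gene. For Srsf3, Srsf7 and Srsf9, records annotated as noncoding shared rows with coding records (2076, 837 and 722 tags), so these levels do not separate productive from noncoding transcripts.

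Other spliceosome genes were counted in 5 lists, chosen with earlier results of these data known. Of 135 symbols 128 had tags. Across tissues 0 of 117 tested were called for genotype. Between liver and brain, where 33.8% of all features were higher in liver and 36.4% lower, 6 of 24 tested U snRNP, tri-snRNP and Lsm genes were higher in liver and 6 lower (25% each), with Lsm2 (log2 1.10) and Lsm6 (0.78), which belong to Lsm rings, highest and Eftud2 (-1.23), a U5 GTPase, and Nhp2l1 (-0.96) lowest. Among genes of branch point and 3' splice site recognition 4 of 16 were higher and 7 lower (25% and 43.8%), and among activation complex and step factors 5 of 21 higher and 3 lower (23.8% and 14.3%). SR-related proteins and SR protein kinases, which include the partners of the Srsf family, had 0 of 20 higher and 13 lower (65%), with Srrm3 (-4.77), a neuronal SR-related protein, lowest. Srpk3, 1 of the 13, had 0 and 0.646 CPM in liver and entered the test through brain. Tissue-regulated splicing factors had 4 of 39 higher and 28 lower (10.3% and 71.8%), with 1 of the 28 at 0 liver tags. Others of the 28 were near 0 in liver, among them Celf3 (1.08 and 0 CPM), Celf6 (1.08 and 0.646 CPM) and Rbm24 (0 and 0.646 CPM). Such genes entered the test through brain, so that their direction was set by the filter. In that list Esrp2 (6.11) and Ptbp1 (2.10), a repressor of neuronal exons, were highest in liver relative to brain. Esrp2 stood at 22.7 and 18.1 CPM in liver and at 0 to 0.600 CPM in the brain libraries. It entered the test through liver alone, so that its direction was set by the filter and its size rests on brain counts near 0. Nova1 (-8.67), the gene at 0 liver tags, and Elavl3 (-5.64), a neuronal RNA-binding protein, were lowest. The list medians ran from -0.99 for tissue-regulated factors to 0.06 for activation factors, beside -0.16 for all features and -0.25 for the 39 members. Between cerebellum and hippocampus 13 of 120 listed genes (10.8%) were higher in cerebellum and 11 (9.17%) lower, beside 13.5% and 15.8% of all features. The lists differed: 10 of the 11 lower genes were tissue-regulated factors. Of those 39 factors 25.6% were lower, above the share of all features, and 12.8% higher.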

How the data were processed

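The deposited table holds raw counts of MACE tags, sense and antisense, for each RefSeq record, per the file headers. The submitters' processing notes name CASAVA 1.8.2 and the build mm9, and the file headers a GRCm38 set; aligner and settings were not given in the sources used here. Up to 3 records share a row where a tag matched them all, per the file headers. The labels' protocol names midbrain and ages in weeks; sample labels were followed. All per-sample columns were mapped.

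Sense counts were summed per symbol; shared rows were assigned to the named gene where the others were predicted. Rows naming no gene (25.84% to 33.47% of sense tags) stayed out. Gene tags numbered 1774523 to 2727523 per library.

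Tests used edgeR 4.0.16 (quasi-likelihood, TMM, filterByExpr) in R 4.3.3, with Benjamini-Hochberg adjustment at 0.05 over all features. Genotype was fitted with tissue as a term (11375 features), tissue with genotype as a term (12906). Spread was estimated separately in each fit and shared by all its libraries. The common coefficient of variation was 0.127 in both fits. Scripts were tested on simulated data. Within tissues, exact (Clopper-Pearson) 95% intervals cover counting error only, since there was 1 library per genotype. Tags may not be independent molecules, and the intervals would then be too narrow. A count of 0 was set to 3. CPM uses the factors of the genotype fit. Full values went to the 3 most abundant genes of each family and to those highest and lowest in each comparison. Members and lists were chosen with earlier results of these data known. Alternatives were library totals, DESeq2 1.42.0 and its size factors, limma 3.58.1 voom, no filter, rows of 1 symbol, no second term, and each library or tissue left out; brain libraries alone were added after seeing the data.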

Additional observations from a re-analysis of the deposited data

Results flagged for a closer look

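Hnrnpu moved in opposite directions in 2 tissues. Its log2 ratio of knockout over wild type was 0.53 in cerebellum (465 and 333 tags) and -0.64 in liver (102 and 266 tags), with counting intervals of 0.32 to 0.74 and -0.98 to -0.31. Each ratio comes from 1 library per genotype, and the difference between the tissues was not tested.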

How the results depend on the processing

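No paired analysis by replicate number was possible because each group holds 1 library; the genotype fit compares knockout with wild type within tissues through its tissue term. Without that term 0 members were called for genotype, and without the genotype term the tissue counts were 5 and 15 for liver and 5 and 2 for cerebellum, as with it. The call of 0 members for genotype across tissues held under every alternative run. For liver against brain (5 higher, 15 lower), library totals gave 0 higher and 37 lower, and no filter 3 higher and 20 lower. DESeq2 gave 3 higher and 11 lower. Snrpc and Snrpe lost their calls as higher there, and Hnrnpa3, Hnrnpd, Hnrnpm and Srsf10 theirs as lower. With a library left out, the members' median log2 difference ran from -0.55 (without wild-type liver) to -0.11 (without knockout liver), against -0.25 with all libraries. For cerebellum against hippocampus (5 higher, 2 lower), library totals gave 9 higher and 1 lower, DESeq2 size factors 3 higher, DESeq2 0 higher and 1 lower, leaving out a library 0 to 8 higher and 0 to 2 lower, and brain libraries alone, chosen after seeing the data, 8 higher. Within tissues, DESeq2 size factors gave 3 higher and 3 lower in liver; no minimum CPM gave 2 higher in cerebellum; a size limit of 1 left 0 higher in cerebellum, 1 higher in hippocampus and 1 lower in liver. Members higher in the knockout in every tissue numbered 2 with library totals and 2 with rows of 1 symbol. Of single genes, Hnrnpab (-0.14), Snrpc (-0.77), Snrpe (-0.79) and Snrpg (-0.59) turned lower in liver with library totals, which move the median of all features to -1.41. Snrpe turned to -0.016 without wild-type liver, with a range of -0.016 to 0.79 over the libraries left out, and Hnrnph2 to -0.58 in hippocampus with rows of 1 symbol only. The causes were not tested, beyond what a scaling or a removal does by construction. Of the values of single genes 339 kept direction and call, 70 lost the call and 6 turned. Depth limits ratios of scarce genes, such as Snrpf in liver.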
